A study of Homo sapiens with 8 samples.

Results

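Cytokine signals reach the nucleus through Janus kinases (JAKs), STAT transcription factors and the SOCS proteins that switch the pathway off. The transcripts of 10 genes of this pathway were followed in Reh. This human cell line grows as B-cell precursors and comes, by the series text, from acute lymphoblastic leukemia, although the sample labels name its malignancy as non-Hodgkin lymphoma. They were the inhibitors SOCS1, SOCS2, SOCS3 and CISH, the kinases JAK1, JAK2 and JAK3, and the transcription factors STAT3, STAT5A and STAT6. Members were taken as every probe set whose platform annotation gave 1 of these symbols and no other, which found 33 probe sets for the 10 genes among the 54613 probe sets that are no controls. Reh cells had been transfected transiently in 4 ways, with 2 biological replicate arrays each: with a shRNA control (titled mock), with an shRNA against the corepressor gene CBFA2T3, with IKKβ(EE), a constitutively active form of the kinase IKKβ that activates NF-κB, or with CBFA2T3 shRNA and IKKβ(EE) together. Whether cells given IKKβ(EE) alone also received the control shRNA is not stated in the labels, and nothing there describes how the replicate cultures were kept apart, so p-values measure the spread between these arrays. All values come from 1 cell line, and changes in RNA level say nothing of the phosphorylation by which JAKs and STATs are switched on.

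As background, a cytokine that binds its receptor brings together the JAKs bound to the receptor chains. The JAKs phosphorylate the receptor and then a STAT, which dimerises, enters the nucleus and binds DNA. SOCS1 and SOCS3 bind and inhibit JAKs directly, CISH and SOCS2 act mainly at phosphorylated receptors, and their genes are classic STAT targets, which closes a negative feedback loop. JAK3 pairs with the common γ chain of the interleukin receptors and is largely a lymphoid kinase, JAK1 and JAK2 are broadly expressed, STAT5A carries interleukin-7 signals in B-cell precursors, STAT6 serves interleukin-4, and STAT3 serves the interleukin-6 family.

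Promoter windows were searched for the DNA letters that STATs and NF-κB are known to bind, since IKKβ(EE) acts on NF-κB. RefSeq promoter windows (build GRCh38.p14) were listed for 9 of the 10 members, in 17 windows, since some genes have several starts; SOCS2 was not matched. In each window the 250 bases before the start were searched on both strands for the STAT motif TTCNNNGAA, which reads the same on both strands. The NF-κB motif was searched in the form GGGRNNYYCC, where R is A or G, Y is C or T and N is any base. A stricter form would match fewer windows. The motifs did not overlap in any window. The STAT motif stood in 1 of the 17 windows, that of CISH, at 4 places; 6.57% of all 35116 promoter windows held at least 1. The NF-κB motif stood in 3 of the 17, 1 each of SOCS1, JAK3 and STAT5A, against 9.96% of all windows. The STAT5A match, GGGGGACCCC, lay 219 to 210 bases before the most downstream of its 3 listed starts. The other 3 are shown because SOCS1 and JAK3 stood among the members that rose and CISH did not. The window of STAT3, which also rose with both constructs, held neither motif. Whether a motif goes with a rise was not tested. Capitals mark the matches, and each sequence runs 5′ to 3′ towards the start on the minus strand: SOCS1 at chr16:11256205-11256454, JAK3 at chr19:17847983-17848232 and CISH at chr3:50611775-50612024.
SOCS1: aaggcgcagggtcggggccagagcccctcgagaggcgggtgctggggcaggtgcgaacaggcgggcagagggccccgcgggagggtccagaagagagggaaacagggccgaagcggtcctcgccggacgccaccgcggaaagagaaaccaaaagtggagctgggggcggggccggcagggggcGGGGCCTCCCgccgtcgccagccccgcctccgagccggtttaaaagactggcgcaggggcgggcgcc
JAK3: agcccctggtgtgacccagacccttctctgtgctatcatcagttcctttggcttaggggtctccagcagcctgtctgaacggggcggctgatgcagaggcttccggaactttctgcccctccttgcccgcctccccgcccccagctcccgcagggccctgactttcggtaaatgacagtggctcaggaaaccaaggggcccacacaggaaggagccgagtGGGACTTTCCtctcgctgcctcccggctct
CISH: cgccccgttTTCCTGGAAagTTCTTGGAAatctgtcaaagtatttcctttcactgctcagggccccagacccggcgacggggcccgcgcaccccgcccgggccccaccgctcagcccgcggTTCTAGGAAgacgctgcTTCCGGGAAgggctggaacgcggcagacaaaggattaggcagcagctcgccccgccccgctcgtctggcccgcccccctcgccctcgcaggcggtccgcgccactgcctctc
In SOCS1 the NF-κB match GGGGCCTCCC lay 67 to 58 bases before the start, and in JAK3 the match GGGACTTTCC lay 30 to 21 bases before it. In CISH the STAT matches fell into a distal pair, beginning 241 and 230 bases before the start, and a proximal pair, beginning 129 and 112 bases before it. A match describes letters only; no binding was measured.

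Values are log2 intensities, on which 1 unit is a doubling, and a probe set entered the tests if it reached log2 5 on at least 2 arrays. Of the 33 member probe sets 18 did, and 24481 did in all. The 15 others, among them all 4 of SOCS3, lay close to background. CBFA2T3 and 1 of 3 IKBKB probe sets moved as labelled: CBFA2T3 averaged 9.26 in control, 8.26 with its shRNA, 8.90 with IKKβ(EE) and 8.03 with both, and the IKBKB probe set 211027_s_at, at 4.0 and 4.02 in the groups without IKKβ(EE), stood at 10.62 with it and 11.71 with both. The other 2 IKBKB probe sets averaged 8.48 to 8.98 and 6.87 to 7.25 over the 4 groups. Of 13 B-cell precursor markers analysed 12 passed the same level filter, against 2 of 6 T-cell and 2 of 7 myeloid markers. Of 4 plasma cell markers 3 (XBP1, PRDM1 and IRF4) and of 3 erythroid or other markers 2 (HBB and COL1A1) passed too. In the same order, the summed log2 levels ranged over the 4 groups from 135.6 to 139.02, from 29.12 to 29.97, from 27.97 to 30.71, from 26.02 to 28.11 and from 14.80 to 15.57, and their part in the results below was not tested. In bulk RNA, a change in the number of cells that carry a transcript cannot be told apart from a change in the amount per cell.

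**Figure D1:**
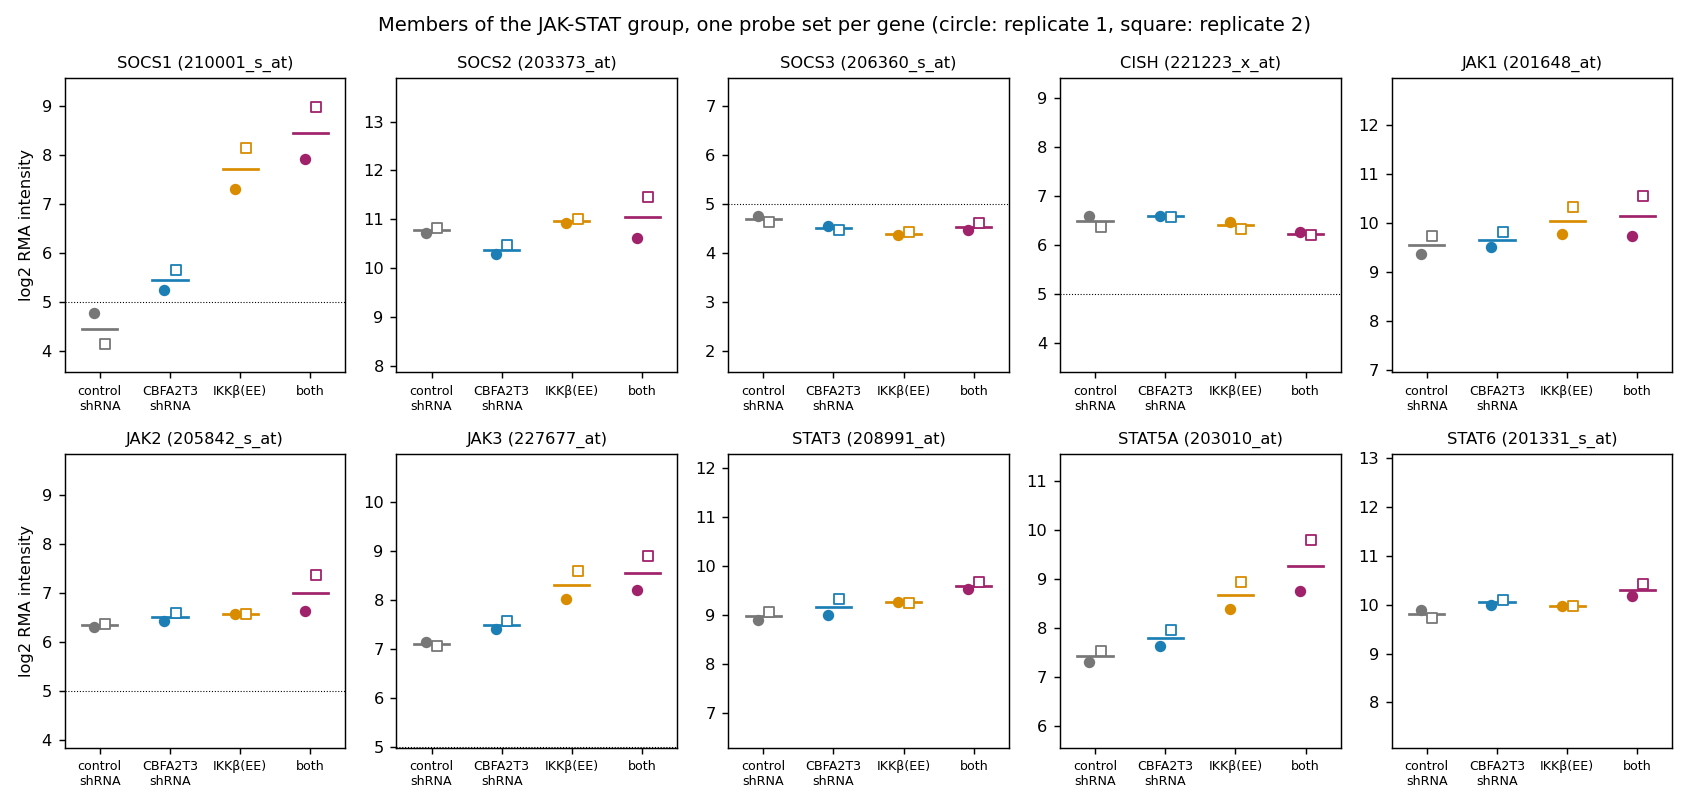
Level of each member gene on its probe set with the highest mean. The vertical axis is the log2 RMA intensity (every panel spans the same number of log2 units), the horizontal axis the transfection, circles and squares are replicates 1 and 2, bars are group means, and the dotted line is the log2 5 filter. SOCS1, JAK3 and STAT5A step up in both groups with IKKβ(EE), SOCS3 stays below log2 5 on every array, and CISH lies between 6.21 and 6.61 on all 8.

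SOCS1, the feedback inhibitor that blocks JAK catalytic activity, showed the largest difference of the group. On probe set 210001_s_at the arrays read 4.76 and 4.14 in control, 5.23 and 5.64 with the CBFA2T3 shRNA, 7.30 and 8.14 with IKKβ(EE), and 7.92 and 8.99 with both. Every array with IKKβ(EE) lay above every array without it, and the CBFA2T3 shRNA arrays also lay above both controls. IKKβ(EE) alone raised SOCS1 by 3.27 ± 0.41 (log2 difference ± SE of the fit, 2 arrays against 2; adjusted p = 0.0376), and both constructs raised it by 4.0 ± 0.41 over control (adjusted p = 0.00436), a 16.1-fold difference from a control mean of 4.45 ± 0.44 (SD, n = 2) that lay under the filter level, so the fold is uncertain. With the CBFA2T3 shRNA alone the difference was 0.99 ± 0.41 (95% confidence interval 0.03 to 1.95, adjusted p = 0.294), which did not pass. Against IKKβ(EE) alone, both constructs differed by 0.74 (interval -0.22 to 1.70, adjusted p = 0.445).

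The 4 SOCS1 probe sets did not behave alike. On 209999_x_at, whose name ending marks probes that may match other transcripts, levels were 4.50 and 4.70 in control, 4.42 and 4.30 with the CBFA2T3 shRNA, 5.18 and 5.37 with IKKβ(EE), and 5.57 and 6.44 with both. The order of the groups was the same except that the CBFA2T3 shRNA arrays lay below the controls instead of above. This probe set rose with both over control by 1.40 ± 0.26 (adjusted p = 0.0235), while its 0.68 ± 0.26 with IKKβ(EE) alone did not pass (adjusted p = 0.467). The other two, 213337_s_at (4.20 to 4.99 over the 8 arrays) and 210000_s_at (2.62 to 3.02), never reached log2 5. Of the SOCS1 probe sets tested, 209999_x_at entered only through the groups with IKKβ(EE), where it is high, so a difference was built in; 210001_s_at reached the filter with the CBFA2T3 shRNA too.

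**Figure D2:**
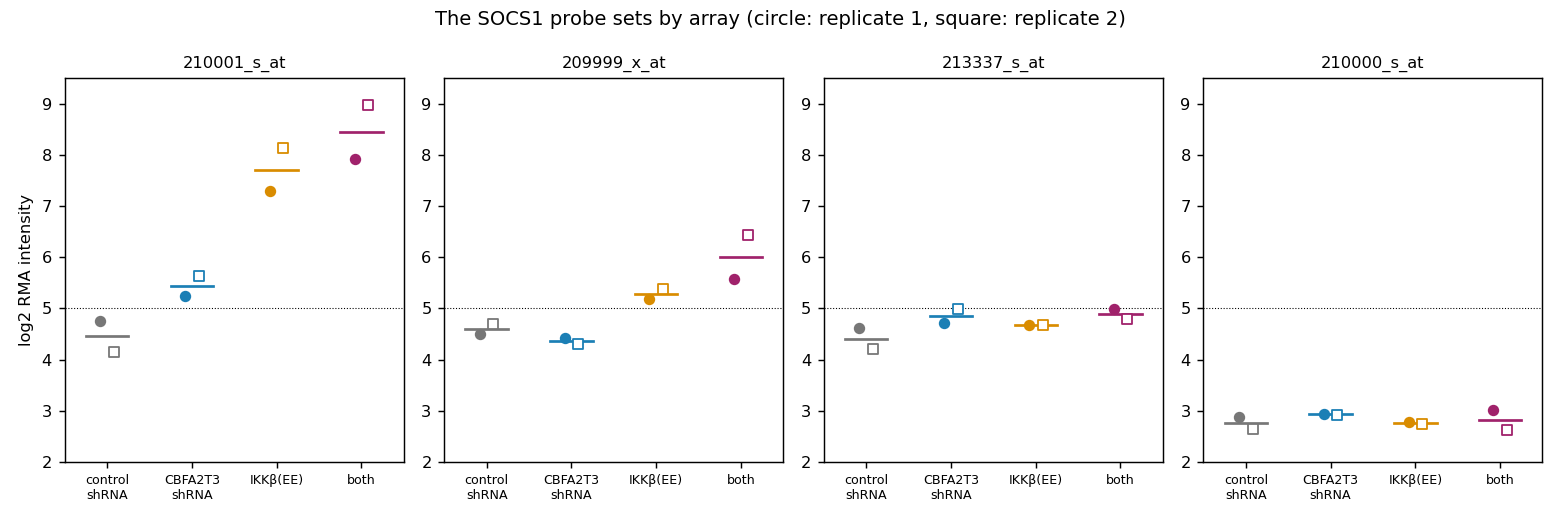
All 4 SOCS1 probe sets by array, with log2 RMA intensity on the vertical axis and the transfection on the horizontal axis; circles and squares are replicates 1 and 2, bars are group means and the dotted line is the log2 5 filter. The step with IKKβ(EE) is seen on 210001_s_at (group means 4.45, 5.44, 7.72 and 8.46) and, smaller, on 209999_x_at, while the remaining 2 stay under the line.

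The SOCS1 calls against control were lost when certain single arrays were left out. The CBFA2T3 shRNA arrays take no part in these differences themselves and enter the fit through the shared spread. The rise with IKKβ(EE) alone failed the test without control 1 (adjusted p = 0.244), control 2 (0.346), IKKβ(EE) replicate 1 (0.075) or 2 (0.221), and without either CBFA2T3 shRNA array (0.0796 and 0.0785), while the difference itself stayed between 2.85 and 3.69. With both over control, 210001_s_at failed only without control 2 (0.0585) and 209999_x_at without control 1 (0.119) or control 2 (0.126).

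The other inhibitors did not pass any test on all 8 arrays. SOCS2, which acts at growth hormone and related receptors, was bright: 203373_at read 10.73 and 10.83 in control, 10.29 and 10.47 with the CBFA2T3 shRNA, 10.93 and 11.01 with IKKβ(EE), and 10.61 and 11.47 with both. Both shRNA arrays lay below all others, and the 2 arrays with both constructs spanned the whole range above them. The difference with the CBFA2T3 shRNA was -0.40 ± 0.25 (interval -0.98 to 0.19, adjusted p = 0.495), and probe set 203372_s_at gave -0.51 ± 0.33 (adjusted p = 0.504). SOCS3, the inhibitor of interleukin-6 family signals, read at most 4.77 on any of its 4 probe sets and any array. CISH read 6.60 and 6.38, 6.61 and 6.57, 6.48 and 6.33, and 6.27 and 6.21 in the same order of groups on 221223_x_at, with both arrays of both constructs lowest. On 223377_x_at control 2 (5.95) and IKKβ(EE) replicate 2 (5.75) lay below both arrays with both constructs. Differences from control were 0.10, -0.08 and -0.25 on 221223_x_at (intervals -0.20 to 0.39, -0.38 to 0.21 and -0.55 to 0.04). On 223377_x_at they were 0.071, -0.105 and -0.028 (intervals -0.275 to 0.417, -0.451 to 0.241 and -0.374 to 0.317). A rise of 1 log2 unit, as SOCS1 exceeded on either probe set with both constructs, lay outside all these intervals. Both CISH names end in _x_at, so their probes may match other transcripts, and a rise of CISH itself is less surely excluded.

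Among the kinases, JAK3 was the one that rose. Its probe set 227677_at read 7.15 and 7.07 in control, 7.42 and 7.58 with the CBFA2T3 shRNA, 8.03 and 8.59 with IKKβ(EE), and 8.21 and 8.91 with both. No array with IKKβ(EE) overlapped with one without, and the shRNA arrays lay just above the controls. JAK3 rose by 1.45 ± 0.26 with both over control (2.73-fold, adjusted p = 0.0213). The 1.2 ± 0.26 with IKKβ(EE) alone missed the threshold (adjusted p = 0.165); adding the replicate number as a block took it past (0.0193). The 3 further JAK3 probe sets lay between 2.70 and 4.97 and were not tested. The call with both constructs failed without control 1 (adjusted p = 0.103), control 2 (0.138) or replicate 2 of both (0.0928).

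JAK2, the kinase of erythropoietin and related receptors, gave differences with both constructs over control of 0.67 ± 0.22 and 0.68 ± 0.19 on its 2 tested probe sets (adjusted p = 0.104 and 0.072, or 0.0339 and 0.0163 with the block). On 205842_s_at it read 6.31 and 6.38 in control, 6.43 and 6.60 with the CBFA2T3 shRNA, 6.59 and 6.58 with IKKβ(EE), and 6.65 and 7.38 with both. The second array with both constructs stood apart there, and the other 7 lay close together. JAK1, shared by most cytokine receptors, read 9.35 and 9.72, 9.51 and 9.81, 9.77 and 10.32, and 9.73 and 10.55 on 201648_at. Replicate 2 was the higher array in every group. Both groups with IKKβ(EE) lay above control by a small margin and overlapped with the CBFA2T3 shRNA. The difference with both over control was 0.60 ± 0.30 (adjusted p = 0.245, or 0.0215 with the block), and JAK1 probe sets 1552611_a_at and 1552610_a_at gave 0.36 ± 0.22 and 0.21 ± 0.28, which passed neither way.

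STAT5A rose most among the transcription factors. On its single probe set, 203010_at, it read 7.32 and 7.52 in control, 7.64 and 7.95 with the CBFA2T3 shRNA, 8.40 and 8.94 with IKKβ(EE), and 8.75 and 9.79 with both. Again the arrays with IKKβ(EE) lay above all others, and the shRNA arrays above the controls. STAT5A rose by 1.85 ± 0.33 with both over control (3.61-fold, adjusted p = 0.0223), and stood at 1.25 ± 0.33 with IKKβ(EE) alone (adjusted p = 0.264; 0.019 under the block) and at 0.37 ± 0.33 under the shRNA alone (adjusted p = 0.649). Without replicate 2 of both the rise was 1.33 and did not pass (adjusted p = 0.0709), nor did it without control 1 (0.115) or control 2 (0.126). STAT5B, the close paralogue of STAT5A, stood at -0.43 ± 0.17 with both over control (adjusted p = 0.165, or 0.0417 with the block). Its differences were 0.04 ± 0.17 with IKKβ(EE) alone and -0.40 ± 0.17 with the shRNA alone (adjusted p = 0.944 and 0.312). No rise like that of STAT5A was thus seen on the STAT5B probe set read.

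STAT3 rose less, and on 2 of its 3 tested probe sets. On 208991_at it read 8.90 and 9.07 in control, 9.01 and 9.33 with the CBFA2T3 shRNA, 9.27 and 9.25 with IKKβ(EE), and 9.53 and 9.68 with both. The 2 arrays with both constructs were the highest, and the other 3 groups overlapped in part. The rise with both over control was 0.62 ± 0.15 there (adjusted p = 0.0441) and 0.75 ± 0.15 on 208992_s_at (adjusted p = 0.031); 225289_at gave 0.40 ± 0.13 (adjusted p = 0.095, or 0.0275 with the block). Both calls were close to the threshold: 208991_at passed only without replicate 1 of both and failed without each of the 7 remaining arrays (adjusted p from 0.0523 to 0.22), and 208992_s_at failed without control 1 (0.123), control 2 (0.16), CBFA2T3 shRNA replicate 1 (0.0501), IKKβ(EE) replicate 1 (0.0503) or replicate 2 of both (0.159). STAT6 read 9.90 and 9.73, 9.998 and 10.10, 9.97 and 9.98, and 10.17 and 10.42 on 201331_s_at. Its arrays with both constructs were the highest too, and the difference over control, 0.48 ± 0.13, did not pass (adjusted p = 0.0671, or 0.0295 with the block). The second STAT6 probe set, 201332_s_at, gave 0.39 ± 0.14 and passed neither way (adjusted p = 0.137 and 0.0748).

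**Figure D3:**
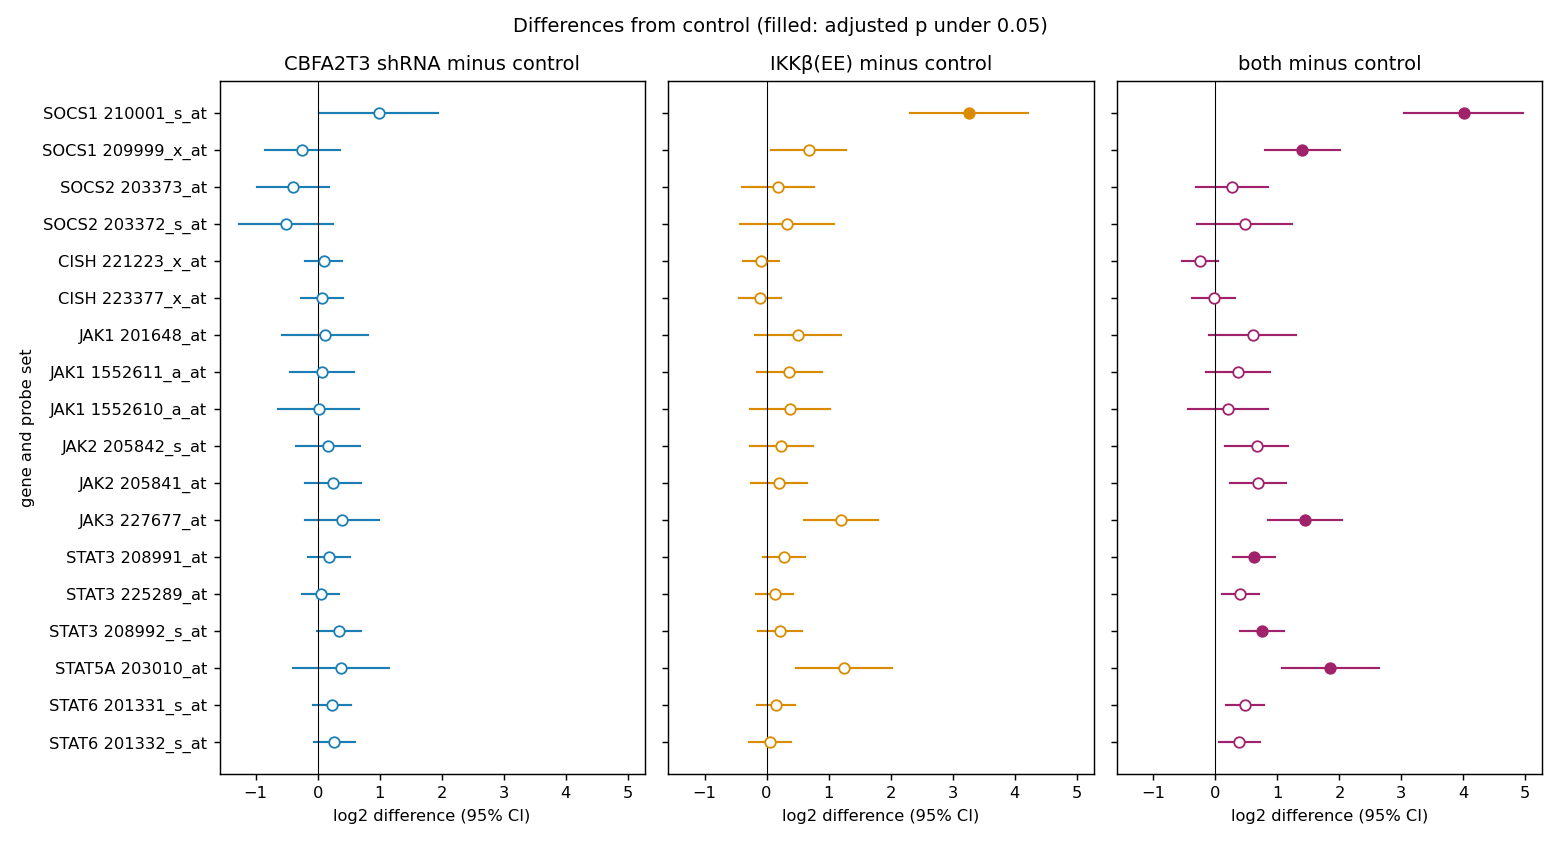
Log2 difference from control (horizontal axis, bars are 95% confidence intervals of the fit) for the 18 tested probe sets, in 1 panel per transfection. Filled points passed at an adjusted p of 0.05: none with the CBFA2T3 shRNA, SOCS1 210001_s_at with IKKβ(EE), and 6 probe sets of SOCS1, JAK3, STAT3 and STAT5A with both.

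Set against all probe sets, the members were called as follows. With both constructs over control 6 of the 18 tested member probe sets, of 4 genes, were called higher and 0 lower, where 4.68% of all tested probe sets were called higher; SOCS1 209999_x_at, with its built-in difference, is among the 6; the median difference was 0.54 for the members and -0.03 for all. With the replicate block 11 of 18 were called higher, of 7 genes, against 11.8% of all. These 11 added JAK1, JAK2 and STAT6 to the list of genes. On 12 of the 18, of 7 genes, both arrays with both constructs lay above both controls, as on 25.5% of all. The count of 6 calls made without the block depended on single arrays. It fell when any array but replicate 1 of both was left out, and furthest without control 1, control 2 or replicate 2 of both. Without replicate 1 of both it rose. Calls over all probe sets, in either direction, numbered 2064 on all arrays and moved the same way.

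IKKβ(EE) alone called 1 of 18 higher, SOCS1, against 0.221% of all (3 of 18, with JAK3 and STAT5A added, against 2.96% with the block). Given to cells that also had the CBFA2T3 shRNA, it called both SOCS1 probe sets higher, 3.02 ± 0.41 and 1.65 ± 0.26 (adjusted p = 0.0242 and 0.0388), against 0.821% of all. The smaller value is that of 209999_x_at, whose difference was built in by the filter. With the block 4 were called, JAK3 and STAT5A again among them, against 3.64%. The count made without the block fell when either array of control, of the CBFA2T3 shRNA or of IKKβ(EE), or replicate 2 of both, was left out. It rose without replicate 1 of both. Over all probe sets the calls went from 211 to between 38 and 151 without any of those 7 arrays, and to 754 without replicate 1 of both. Averaged over cells with and without the shRNA, 4 arrays against 4, IKKβ(EE) raised 4 probe sets: SOCS1 by 3.14 ± 0.29 (adjusted p = 0.00316) and 1.16 ± 0.18 (0.0221), JAK3 by 1.13 ± 0.18 (0.0246) and STAT5A by 1.36 ± 0.24 (0.0309), against 2.31% of all. The same 4 were the member probe sets on which all arrays with IKKβ(EE) lay above all others, as on 5.68% of all. SOCS1 209999_x_at, with its built-in difference, is among these 4 in both counts. With the block 6 were called, against 9.07%. Of these 4 calls only SOCS1 210001_s_at passed without each array in turn (adjusted p at most 0.027); the other 3 failed without either control (0.0871 to 0.126), either CBFA2T3 shRNA array (0.0795 to 0.119) or IKKβ(EE) replicate 2 (0.076 to 0.107), which left 1 call each time, and without replicate 1 of both 8 were called. All-probe-set calls went from 709 to between 133 and 227 in those 5 cases, and to 2078.

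The CBFA2T3 shRNA called no member. Against control 0 of 18 passed with limma, with 1 at an unadjusted p under 0.05 and 0 with the block, where 0.69% of all were called in either direction and 7.72% with the block. Added to IKKβ(EE) it called 0 of 18, with 5 at an unadjusted p under 0.05 and 0 with the block, against 0.143% and 4.56% of all. Averaged over cells with and without IKKβ(EE) it called 0 of 18, with 6 at an unadjusted p under 0.05, against 7.6% of all in either direction. With the block 4 were called higher, of SOCS1, JAK2, STAT3 and STAT5A, against 11.2% of all. Without replicate 1 of both, 1 was called when the shRNA was added to IKKβ(EE) and 6 on average, while calls over all probe sets rose from 35 to 255 and from 1860 to 2670. The interaction, which asks whether both constructs together differ from the sum of each alone, called 0 of 18 with and without the block, with 1 at an unadjusted p under 0.05, against 0.0123% of all either way. For STAT5A it was 0.23 (interval -0.87 to 1.33) and for JAK3 -0.15 (interval -1.0 to 0.70), so these data leave room for sizable departures in either direction.

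**Figure D4:**
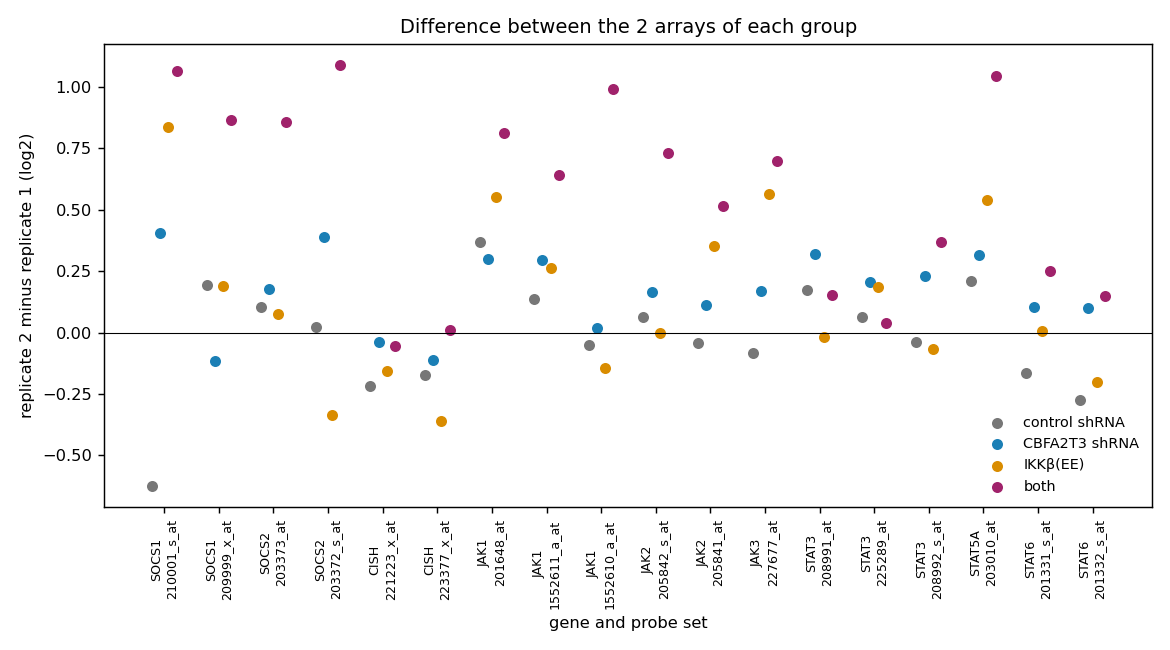
Replicate 2 minus replicate 1 (log2, vertical axis) for the 18 tested member probe sets (horizontal axis), with 1 point per transfection. In the cells with both constructs 17 of 18 points lie above 0, against 9 in control, 15 with the CBFA2T3 shRNA and 10 with IKKβ(EE).

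The arrays with both constructs differed more from each other on the members than those of any other group. Replicate 2 exceeded replicate 1 by a median of 0.67 log2 over the 18 probe sets, where the median size of that difference over all tested probe sets was 0.20. In the other groups the members' median was -0.01 (control), 0.17 (CBFA2T3 shRNA) and 0.04 (IKKβ(EE)), where gaps of opposite sign cancel. Taken without sign, the members' median gap was 0.15, 0.17 and 0.195 in these groups, against 0.67 with both. The gap reached 1.06 for SOCS1 on 210001_s_at, 1.04 for STAT5A and 1.09 for SOCS2 on 203372_s_at, against 0.15 for STAT3 on 208991_at. SOCS2, whose call with both over control failed on all arrays (0.26 and 0.47), passed without replicate 1 of both (0.69 and 1.02, adjusted p = 0.0296 and 0.0261), as did both JAK2 probe sets, JAK1 on 1552610_a_at (0.70, adjusted p = 0.024) and STAT6 on 201331_s_at (0.60, adjusted p = 0.0398). What set the 2 arrays apart was not tested.

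The rest of the pathway was read from 5 lists holding 126 genes, of which 76 passed the level filter and were tested. Of these, 14 reached log2 5 on fewer than 2 of the 4 arrays without IKKβ(EE) and so passed only through the groups where they are high. Their levels are given as a description, and calls are counted over the 62 others. With both constructs 17 of the 62 were called higher and 1 lower (4.68% of all probe sets higher, as above), with IKKβ(EE) alone 1 was higher (0.221%), and with the CBFA2T3 shRNA alone 1 was higher (0.69% either way). With the replicate block these were 30 higher and 2 lower (11.8% higher), 8 higher (2.96%), and 7 higher and 1 lower (7.72% either way). This split was made after the values were seen, and the same shares of all probe sets apply to the counts by list below.

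Among ligands 30 were analysed, 10 were tested and 6 did not depend on the arrays with IKKβ(EE). With both constructs 3 of these 6 rose and 0 fell, where 4.68% of all tested probe sets were called higher. IL23A, a subunit of interleukin-23, rose by 3.39 ± 0.43 (adjusted p = 0.00784), to 7.56 and 9.17. Its control arrays, at 4.95 and 4.997, lay under the filter level, so the size is uncertain. It counts here through the shRNA arrays, at 5.26 and 5.23. IL15, which signals through JAK1 and JAK3, rose by 2.61 ± 0.35 (0.00952), from 7.06 and 7.29 in control to 9.24 and 10.32, and had the largest value with the shRNA alone, 0.63 ± 0.35 (adjusted p = 0.44). With either construct alone 0 of the 6 passed with limma (1 with the block for IKKβ(EE)). The remaining 4, IL6, EBI3, IFNG and IFNL1, were near background without IKKβ(EE). EBI3, a subunit of interleukins 27 and 35, read 3.17 to 3.76 on the 4 arrays without it, 8.13 and 8.998 with it and 8.35 and 10.10 with both.

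Of 18 receptor genes so counted, 5 rose and 1 fell with both constructs, where 4.68% of all tested probe sets were called higher. IL15RA rose by 1.42 ± 0.21 (adjusted p = 0.0128), IL2RG, the common γ chain that binds JAK3, by 1.17 ± 0.28 (0.0463) and CSF2RB, the common β chain of receptors that use JAK2, by 1.02 ± 0.25 (0.0498). IL7R, the interleukin-7 receptor chain of B-cell precursors, fell by 0.77 ± 0.15 (adjusted p = 0.0296), from 12.51 and 12.35 to 11.81 and 11.52, with 11.92 and 11.67 under the shRNA and 12.43 and 12.32 under IKKβ(EE). The low IL7R arrays were thus those with the CBFA2T3 shRNA, whose own difference, -0.64 ± 0.15, passed only with the block (adjusted p = 0.107, or 0.0148). With either construct alone 0 receptors passed with limma, and 3 higher with IKKβ(EE) and 2 higher and 1 lower with the shRNA did under the block. IL21R had the largest values, 2.68 ± 0.88 with IKKβ(EE) (adjusted p = 0.393, or 0.00308 under the block) and 0.72 ± 0.88 for the shRNA (adjusted p = 0.755). IL4R, the receptor that feeds STAT6, entered only through the groups with IKKβ(EE), where it averaged 6.33 alone and 6.82 with both, against 4.86 in control and 4.95 with the shRNA.

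Among the other JAK and STAT genes 3 were tested, and 1, IRF9, the partner of STATs in the interferon response, rose with both constructs by 2.64 ± 0.25 (adjusted p = 0.00317). Its arrays read 6.21 and 5.79 in control, 6.87 and 7.52 with the shRNA, 7.95 and 7.53 with IKKβ(EE), and 8.61 and 8.67 with both, so that each construct alone lay above control and both lay highest. Alone, the shRNA gave 1.2 ± 0.25 (adjusted p = 0.0815) and IKKβ(EE) 1.74 ± 0.25 (adjusted p = 0.0539), and both passed with the block (0.0322 and 0.0141). Of 15 other inhibitors 1, USP18, which dampens interferon receptor signalling, rose with both constructs (1.09 ± 0.16, adjusted p = 0.0128), and 4 of 15 did with the block. Over all probe sets 4.68% were called higher, and 11.8% with the block, so 1 of 15 is close to the share of all. With either alone 0 passed with limma and 1 each passed, higher, with the block. These were USP18 with IKKβ(EE) (0.73 ± 0.16, adjusted p = 0.172, or 0.0404 with the block) and PTPN6 with the shRNA (0.53 ± 0.22, adjusted p = 0.29, or 0.0258). The largest value with the shRNA, SOCS4 at -0.56 ± 0.14, passed neither way (adjusted p = 0.124, or 0.0512 with the block).

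Of 20 STAT target genes so counted 7 rose and 0 fell with both constructs (11 with the block), 1 rose with IKKβ(EE) alone (2) and 1 with the shRNA alone (3). Of all probe sets, 4.68% (11.8%) were called higher with both and 0.221% (2.96%) with IKKβ(EE) alone. With the shRNA alone 0.69% (7.72%) were called either way. ICAM1, an adhesion molecule, rose by 3.62 ± 0.43 with both (adjusted p = 0.00657) and by 3.35 ± 0.43 with IKKβ(EE) alone (0.0376), from a control mean of 6.23. The interferon-induced genes GBP1 (2.39 ± 0.33, adjusted p = 0.0108) and IFIT1 (1.87 ± 0.24, adjusted p = 0.00853) followed with both. With the shRNA alone it was ISG15, an interferon-induced ubiquitin-like protein, at 1.2 ± 0.19 (adjusted p = 0.0482). Another 7 genes of the list passed only through the groups with IKKβ(EE); of these the chemokine gene CXCL11 read 2.35 to 2.97 on the 4 arrays without it and 7.75 to 8.31 on the 4 with it. Several genes of this list are also known targets of NF-κB. CISH, printed above with its 4 STAT motifs, is a STAT5 target in many cells and gave no call in any of the 8 comparisons.

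**Figure D5:**
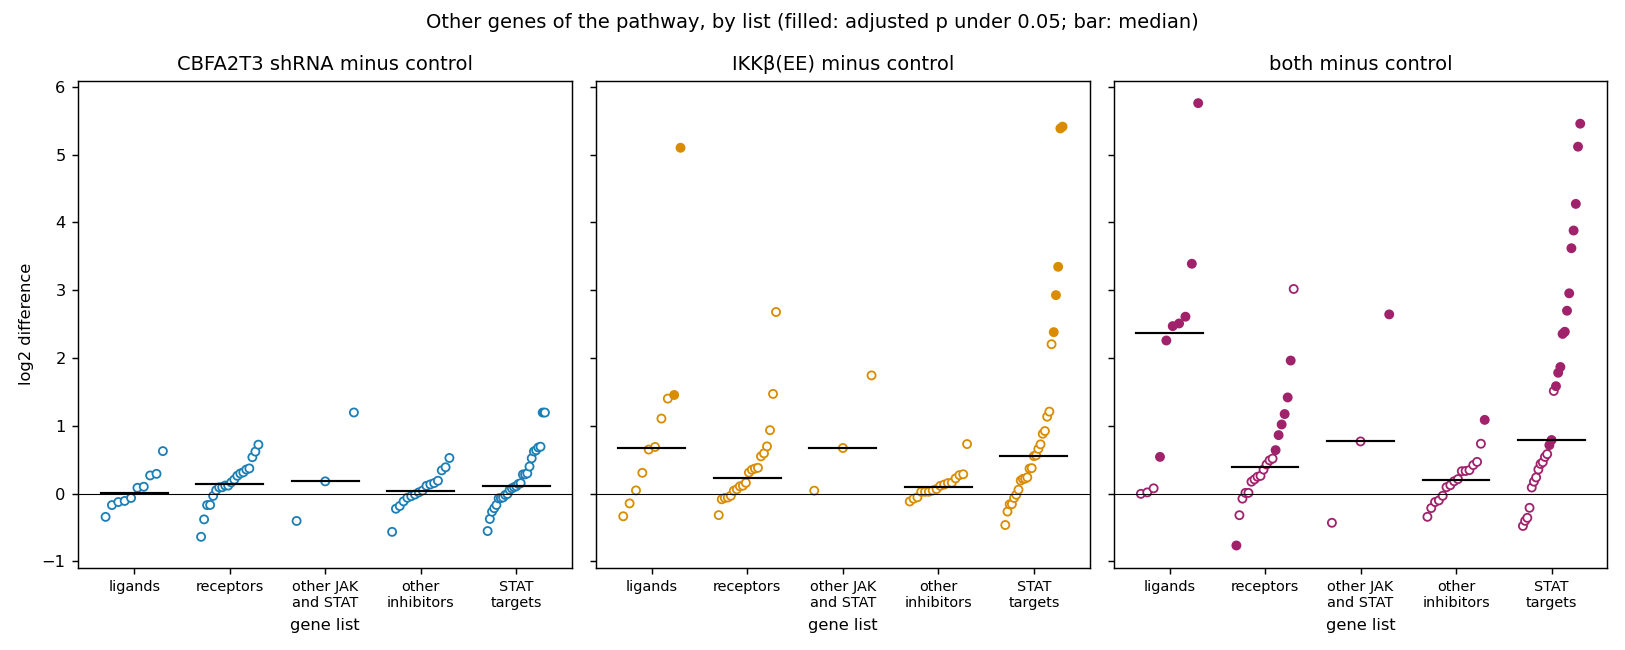
Log2 difference from control (vertical axis) of the 76 other pathway genes tested, by list (horizontal axis), in 1 panel per transfection; points are genes, filled where the adjusted p is under 0.05, and bars are list medians. Filled points number 29 higher and 1, IL7R, lower with both constructs, 7 higher with IKKβ(EE) alone and 1 with the shRNA alone; the 14 genes that passed the filter only through the groups with IKKβ(EE) are drawn too and hold 12 of the 29 and 6 of the 7.

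Genes with profiles closest to the members that spanned at least 1 log2 unit between group means were found by the root mean square difference of mean-centred log2 values over the 8 arrays, among 11449 genes. For SOCS1 they were the death receptor gene FAS (0.18), MROCKI (0.31) and the plasminogen activator gene PLAU (0.31). FAS averaged 5.02, 5.91, 8.56 and 8.92 in control, CBFA2T3 shRNA, IKKβ(EE) and both, against 4.45, 5.44, 7.72 and 8.46 for SOCS1. For JAK3 the closest were RNF19B (0.11), the cytidine deaminase gene APOBEC3G (0.12) and the kinase gene PLK2 (0.14). For STAT5A they were the transcription factor genes IRF4 (0.18) and JUNB (0.19) and NEURL3 (0.19). MROCKI averaged 3.75 in control and 4.31 with the CBFA2T3 shRNA, both under the filter level, so the filter favoured a step with IKKβ(EE). PLAU and NEURL3 averaged 4.37 and 4.83 in control, also under it. All these points share the same 8 arrays, so the differences describe likeness only.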

How the data were processed

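Total RNA of each sample was read on 1 Affymetrix expression array, 8 in all. The authors deposited 1 log2 intensity per probe set, made with RMA per the submitters' processing notes. RMA removes any shift common to most transcripts; version and chip definition: not given in the sources used here. Of 54675 probe sets, 62 controls and 30132 that did not reach log2 5 on 2 arrays were left out.

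All 24481 others were fitted with limma 3.58.1 in R 4.3.3, with 1 mean per group and a shared spread (4 residual and 3.54 prior degrees of freedom), in 8 comparisons. Tests were two-sided, with Benjamini-Hochberg adjustment over all probe sets and a threshold of 0.05. Differences ± are standard errors unless SD is written. The smallest p of an exact permutation test is 0.333 at this size, so precision is limited by how few arrays there are. The fit was tested on simulated data.

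The differences between replicates 2 and 1 correlated in all 6 pairs of groups (0.344 to 0.577), so same-numbered arrays deviate together, though no shared day or batch is stated. The fit reported first has no pairing term; a block for the replicate number was an alternative, printed where it changes a call. Members and gene lists were chosen with earlier results of these data known. Genes named were all members, the 3 closest profiles, and up to 3 called genes at either end of each pathway list against control. Those list genes were taken among genes past the filter without the IKKβ(EE) arrays, or the largest value where none was called. STAT5B, PTPN6, that restriction and the EBI3, IL4R and CXCL11 levels were chosen after values were seen. Alternatives were other level filters, moderation, array weights, normalizations, the block, fits on the compared groups alone, and leaving out each array.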

Additional observations from a re-analysis of the deposited data

Results flagged for a closer look

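On SOCS1 probe set 209999_x_at the CBFA2T3 shRNA went opposite ways with and without IKKβ(EE): both shRNA arrays lay below both controls (a difference of -0.24), and both arrays with both constructs lay above both IKKβ(EE) arrays (0.73). The difference between these effects was 0.97 ± 0.36 on the log2 scale and did not pass over all probe sets (limma interaction, adjusted p = 1, unadjusted p = 0.03). On SOCS1 210001_s_at the same term was -0.25 ± 0.58, of the opposite sign.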

How the results depend on the processing

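Over the tested member values and alternatives, 2133 of 2234 kept their side of the threshold, 40 gained a call, 61 lost one and 0 called values changed sign; 68 uncalled values changed sign, the largest of them 0.47. With the replicate block the counts of called member probe sets were 3 for IKKβ(EE) against control (1 without it), 11 for both against control (6), 4 for both against the CBFA2T3 shRNA (2) and 4 for the shRNA averaged over IKKβ(EE) (0); the block left the count at 0 for the shRNA against control, both against IKKβ(EE) and the interaction. For the shRNA averaged over IKKβ(EE), a floor at log2 6, trended robust moderation and array weights each gave 1. With a floor at log2 6, at which SOCS1 209999_x_at is no longer tested, both against the shRNA gave 1. Over all probe sets, calls for both against control numbered 2064, and 5810 with the block. The fit on the 2 compared groups alone, with fewer arrays, gave 2 members (532 of all) for both against control and 0 for both against the shRNA. Leaving out each array gave 0 to 1 for IKKβ(EE) against control, 0 to 12 for both against control, 0 to 7 for both against the shRNA, 0 to 1 for both against IKKβ(EE), 1 to 8 for IKKβ(EE) averaged and 0 to 6 for the shRNA averaged; a group left with 1 array is assumed to vary like the others. The cause of other changes was not tested. Cyclic loess and equal medians moved no count of calls by over 1.5 times. Counting only pathway genes past the filter without the IKKβ(EE) arrays, a choice made after seeing the data, changed the calls against control from 30 to 18 with both constructs and from 7 to 1 with IKKβ(EE), since fewer genes are counted, and left 1 with the shRNA. The median standard error of a difference, 0.15, limits what 2 arrays a group can resolve.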

Other observations

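The 15 member probe sets under the level filter were also fitted, in a table with no filter. Of 120 values over the 8 comparisons 0 passed with limma, with 14 at an unadjusted p under 0.05 and a lowest adjusted p of 0.0729. That lowest value belonged to SOCS3 on 227697_at, which read 2.13 and 2.29 in control, 2.09 and 2.44 with the CBFA2T3 shRNA, 2.49 and 2.42 with IKKβ(EE) and 2.77 and 2.81 with both constructs, all far under log2 5.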
